A study of Mus musculus with 12 samples.

Results

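The 9 genes Mbp, Mog, Mag, Mobp, Cnp, Cldn11, Ugt8a, Olig1 and Olig2 mark the oligodendrocyte lineage and its myelin. They were taken by name, with every probe whose accession mapped to them, and they are 9 of the 23579 genes named on the arrays. Expression was measured with single-colour microarrays in cells enriched as microglia by magnetic sorting for CX3CR1 from brains of male mice aged 8 weeks. There were 6 groups of 2 samples: ZEB1-overexpression, ZEB1-knock down and wild type mice after transient middle cerebral artery occlusion (tMCAO, a stroke model in which a brain artery is blocked and reopened), and the same 3 genotypes before it. The sources used here do not give how ZEB1 was overexpressed or knocked down, in which cells, or how long after tMCAO the cells were taken. The labels do not say that the 2 samples of a group came from separate animals, so the spread behind each p-value may be only technical.

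Oligodendrocytes wrap axons of the central nervous system in myelin, a stack of compacted membrane rich in galactolipids. OLIG1 and OLIG2 are transcription factors that specify and maintain the lineage. MBP holds the inner faces of the membrane together, and the other members are proteins and enzymes of the sheath. None of the 9 genes is a usual marker of microglia. The comparisons asked how far these genes were seen in the sorted cells and whether they differed with genotype or with tMCAO.

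Wild type and ZEB1 overexpression after tMCAO lay on a slide of 4 arrays, and the other 4 groups on a slide of 8 arrays of another design, so only groups of the same slide were tested. A level is the log2 signal of a probe minus the 75th percentile of its array. The 75th percentile ran from 1078 to 1515 intensity units on the first slide and from 2566 to 3702 on the second, and 60.4% to 73.9% of spots were well above background. The scanner software marked 7.49% to 23.7% of spots as non-uniform or outlying on 8 arrays, and 1.03% to 3.28% on the wild type and knock-down arrays before tMCAO. Among spots of the 9 genes, 16 of 28 were marked in knock-down after tMCAO and 14 of 28 in overexpression before it, against 0 of 28 in knock-down and 0 of 28 in wild type before tMCAO. On the slide of 4 arrays, 3 of 26 were marked in overexpression and 11 of 26 in wild type. Bright spots were marked more often than all spots. Of spots above the 75th percentile, 52.8% and 66.6% were marked in knock-down after tMCAO. In overexpression before tMCAO the shares were 66.0% and 49.4%, and in knock-down and wild type before it 3.68% to 11.1%. After tMCAO they were 58.6% and 26.2% in overexpression and 70.5% and 54.3% in wild type. Calls were therefore made both with marked spots left out and with marked spots kept. Each group also occupied its own part of its slide, which cannot be told apart from the group, and for groups on different slides the slide cannot be told apart from the group either. Zeb1 itself passed in none of the 5 comparisons, and groups are called as labelled. Its brighter probe on the slide of 8 arrays lay at -0.28 and -0.36 in overexpression and at -0.11 and -0.79 in knock-down, against -0.57 and -0.59 in wild type, all before tMCAO, and at -0.66 and -0.67 in knock-down after it. Its probe on the slide of 4 arrays lay at -0.08 and 0.56 in overexpression, against 0.12 and 0.41 in wild type.

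ZEB1 is known to bind the letters CAGGTG, which read CACCTG on the opposite strand. A core bound by SOX factors, some of which act in this lineage, has the letters ACAAAG. Promoter windows of 300 bases, from 250 before to 50 after a transcription start, were taken from RefSeq (GRCm38.p6) and searched on both strands. A usable window was held for 7 of the 9 genes. CAGGTG was found in Mag, Cnp and Ugt8a, 3 of these 7, and in at least 1 window of 22.6% of all 27025 mouse genes. ACAAAG was found in Mag, Mobp and Cnp, against 21% of all genes. Of all 32851 windows, 20.2% held CAGGTG and 18.7% ACAAAG. The windows of Cldn11, Mog and Olig2 held neither run of letters. The windows of the 3 genes with CAGGTG follow, with those of Mog and Cldn11, the genes called in the comparison described next. Capitals mark the matches.
Ugt8a (chr3:125938603-125938902, minus strand): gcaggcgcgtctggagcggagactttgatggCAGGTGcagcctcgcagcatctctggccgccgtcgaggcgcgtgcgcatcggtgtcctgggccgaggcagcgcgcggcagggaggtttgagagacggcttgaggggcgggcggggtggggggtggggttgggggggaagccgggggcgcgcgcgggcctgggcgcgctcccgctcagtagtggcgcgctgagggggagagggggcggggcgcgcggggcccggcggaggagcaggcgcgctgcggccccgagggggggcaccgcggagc
Mag, at 1 of its annotated starts (chr7:30914272-30914571, minus strand): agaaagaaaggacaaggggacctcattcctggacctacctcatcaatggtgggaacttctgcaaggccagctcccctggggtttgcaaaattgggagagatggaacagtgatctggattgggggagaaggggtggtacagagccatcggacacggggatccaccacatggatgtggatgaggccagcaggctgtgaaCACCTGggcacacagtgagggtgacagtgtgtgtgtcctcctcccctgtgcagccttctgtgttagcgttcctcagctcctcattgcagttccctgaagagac
Cnp (chr11:100574689-100574988, plus strand): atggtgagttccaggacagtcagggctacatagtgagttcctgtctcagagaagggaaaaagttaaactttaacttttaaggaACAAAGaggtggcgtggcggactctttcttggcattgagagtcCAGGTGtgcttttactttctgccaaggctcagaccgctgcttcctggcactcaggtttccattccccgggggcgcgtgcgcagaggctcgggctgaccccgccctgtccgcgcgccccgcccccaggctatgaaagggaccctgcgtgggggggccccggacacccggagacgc
Mog (chr17:37023349-37023648, minus strand): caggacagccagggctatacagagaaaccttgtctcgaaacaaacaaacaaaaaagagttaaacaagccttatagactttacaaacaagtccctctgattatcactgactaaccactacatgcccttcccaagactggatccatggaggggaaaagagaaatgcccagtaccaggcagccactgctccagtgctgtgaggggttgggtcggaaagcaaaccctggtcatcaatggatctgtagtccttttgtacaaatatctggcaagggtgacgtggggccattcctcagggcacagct
Cldn11 (chr3:31149670-31149969, plus strand): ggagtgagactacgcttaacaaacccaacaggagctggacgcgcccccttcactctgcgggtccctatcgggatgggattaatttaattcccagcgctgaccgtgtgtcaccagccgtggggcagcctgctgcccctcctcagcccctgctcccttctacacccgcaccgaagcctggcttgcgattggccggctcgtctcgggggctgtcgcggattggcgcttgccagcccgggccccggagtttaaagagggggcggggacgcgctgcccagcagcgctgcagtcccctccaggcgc
The match in Ugt8a starts 219 bases before the transcription start, that in Mag 53 bases and that in Cnp 124 bases before it. Cnp also holds ACAAAG, 167 bases before its start. A match describes the letters of a window and not binding.

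The first comparison asked whether the genes differed in ZEB1-knock down cells after tMCAO from those before it. All 9 genes were measured by 14 probes on this slide, and every probe passed the filter on dim signal. With marked spots left out, only 7 probes of 5 genes could be tested, of which 1 rose, a Mog probe, where 10.6% of all 31612 probes tested rose, 7.42% fell and 18.1% changed in either direction (limma, Benjamini-Hochberg adjusted p under 0.05). With marked spots kept, 2 of 14 probes rose, the same Mog probe and the Cldn11 probe, where 9.8% of all 39085 probes rose, 6.8% fell and 16.6% changed. Of the 14 differences 13 were above 0, with a median log2 difference of 0.55, against 0.02 over all probes, of which 51.4% were above 0. With marked spots left out, 5 of 7 were above 0 and the median was 0.53. The 2 groups did not overlap for 12 of 14 probes, 11 higher after tMCAO and 1 lower, against 32.1% of all probes higher and 29.5% lower. Values below are from the fit with marked spots left out for a probe with no marked spot in either group, and otherwise from the fit with them kept unless stated. In bulk samples, more cells of a type and more RNA per cell cannot be told apart.

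Mog, a surface protein on the outermost myelin layer, showed the largest differences of the 9 genes. Its probe A_66_P123582 lay at 1.31 and 1.21 after tMCAO, against 0.32 and 0.22 before it, all 4 spots unmarked. The groups were far apart, with a log2 difference of 0.99 ± 0.21 (SE, n = 2 arrays each, limma adjusted p = 0.0295), 1.99-fold on the linear scale. The second Mog probe, A_66_P119497, lay at 0.94 and 0.75 after tMCAO, against -0.07 and -0.52 before it, without overlap. Its log2 difference of 1.14 ± 0.32 did not pass (adjusted p = 0.0553, and 0.0958 with 1 array after tMCAO when the marked spot was left out).

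Cldn11, the claudin that seals the layers of myelin, lay at 2.76 and 2.64 after tMCAO, against 1.97 and 2.04 before it. Both arrays after tMCAO were above both arrays before it, by 0.69 ± 0.18 on the log2 scale (1.62-fold, adjusted p = 0.0459). Both spots after tMCAO were marked, so no value remains with marked spots left out. Neither call was kept when any 1 of the 4 arrays was left out: the adjusted p of Mog then ran from 0.0610 to 0.121 with marked spots left out, and that of Cldn11 from 0.0735 to 0.166 with marked spots kept.

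The 3 Mbp probes on this slide disagreed. A_52_P329451 lay at 2.71 and 3.11 after tMCAO, against 2.34 and 2.06 before it (log2 difference 0.71, adjusted p = 0.0674 with marked spots left out). The brightest Mbp probe, A_55_P2889696, lay at 4.24 and 4.28, both marked, against 3.72 and 3.66 (0.57, adjusted p = 0.0757). A_52_P604195 went the opposite way, at 1.37 and 1.87 after tMCAO, against 1.91 and 2.06 before it (-0.36, adjusted p = 0.275). It was the only one of the 14 probes with a negative difference when marked spots were kept. The sources used here do not give which Mbp transcripts each probe detects.

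Mobp, a small protein of compact myelin, did not pass with either probe. A_51_P291224 lay at 2.82 and 3.02 after tMCAO, both marked, against 2.65 and 2.42 before it (0.38, adjusted p = 0.159). A_55_P1958798 lay at 1.91 and 2.58, against 2.06 and 2.0, and the groups overlapped. The higher of its arrays after tMCAO was marked, so that the log2 difference was 0.21 with marked spots kept and -0.12 with them left out (adjusted p = 0.567 and 0.695).

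Mag, an adhesion protein facing the axon, lay at 2.11 and 1.2 after tMCAO, both marked, against 0.86 and 1.06 before it (0.70, adjusted p = 0.211). Its 2 arrays after tMCAO were further apart than the groups. Cnp, the phosphodiesterase of the uncompacted loops of myelin, lay at 2.30 and 2.41, both marked, against 1.78 and 1.84 (0.54, adjusted p = 0.108). Ugt8a makes galactosylceramide, the main myelin galactolipid. Its brighter probe, A_52_P439263, lay at 0.96 and -0.19 after tMCAO, both marked, against -0.20 and -0.11 before it, so that the groups overlapped (0.54, adjusted p = 0.326). The dim probe A_51_P506822 lay at -4.03 and -4.78, against -4.82 and -4.98, without overlap (0.50, adjusted p = 0.207).

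The transcription factors lay a little higher after tMCAO, without passing. Olig1 lay at 2.73 and 2.85 after tMCAO, both marked, against 2.25 and 2.22 before it (0.55 ± 0.16, 1.47-fold, adjusted p = 0.0576). Olig2 was dimmer, at -0.77 and -1.24 after tMCAO, against -1.50 and -1.58 before it, all unmarked and without overlap (0.53, adjusted p = 0.163).

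**Figure D1:**
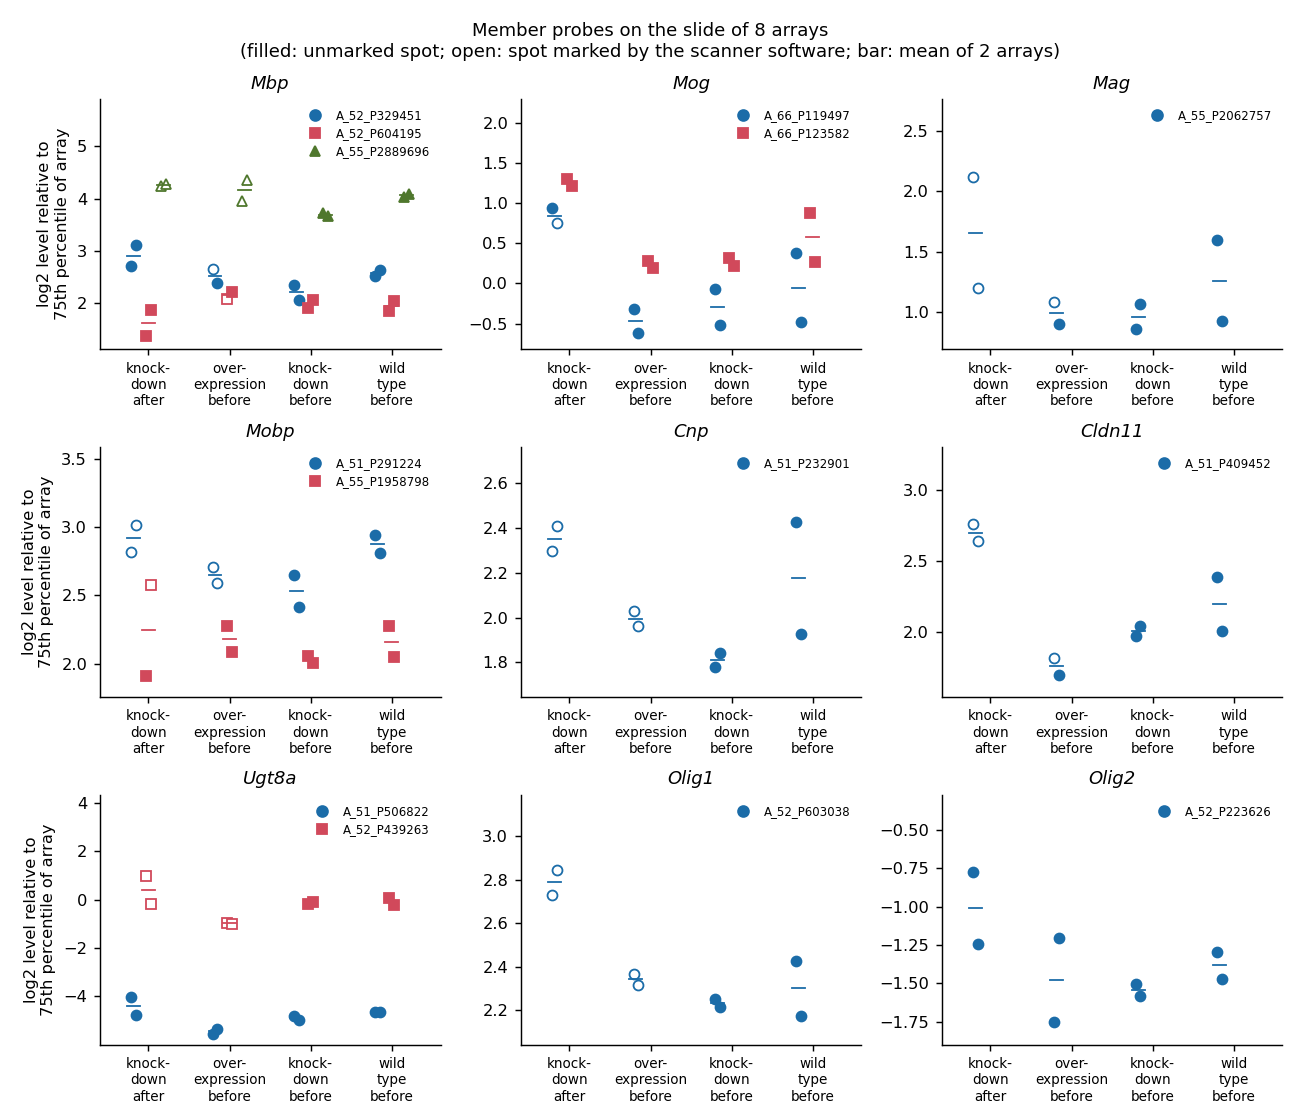
Level of each of the 14 probes on the slide of 8 arrays, as log2 signal above or below the array's 75th percentile (y axis), by group (x axis). Each point is 1 array, open where the spot was marked, and bars are means of 2 arrays. Both knock-down arrays after tMCAO lie above both knock-down arrays before it for 11 of the 14 probes.

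The second comparison, on the slide of 4 arrays, was of ZEB1 overexpression with wild type, both after tMCAO. Of 13 probes of the 9 genes 0 passed with marked spots kept, and 0 of 10 probes of 6 genes passed with them left out, where 3.63% and 2.94% of all probes changed. Of all probes, 2.08% rose and 1.54% fell with marked spots kept, and 1.85% rose and 1.09% fell with them left out. The number at an unadjusted p under 0.05 was 5 of 13 and 2 of 10, against 23.1% and 21.9% of all probes. With marked spots kept, 11 of 13 differences were below 0, with a median of -0.48, against -0.09 over all probes, of which 42.4% were above 0. When they were left out, 8 of 10 were below 0 and the median was -0.22. The groups did not overlap for 8 probes lower in overexpression, 7 of them of Mog, Mag, Mobp, Cnp and Cldn11, and for 1 higher, against 33.3% and 22.2% of all probes. Values of single probes in this and the remaining comparisons are with marked spots kept unless stated.

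Mog again showed the largest difference. Its only probe here, A_66_P123582, lay at -0.73 and -0.55 in overexpression, against 0.72 and 0.38 in wild type. The log2 difference was -1.19 ± 0.25 (SE, n = 2 arrays each) with an adjusted p of 0.0525, just outside the threshold, and -1.02 (adjusted p = 0.145) without the marked first wild type spot. With any 1 of the 4 arrays left out, the Mog difference ran from -1.36 to -0.93. Without the second overexpression array and with marked spots kept it was -1.28. A fit without 1 array leaves 1 array in its group, which is assumed to vary as the arrays of the other group do.

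Cnp lay at 0.30 and 1.59 in overexpression, against 1.86 and 2.32 in wild type, with both wild type spots marked. The groups did not overlap, but the overexpression arrays were far apart (-1.15 ± 0.43, adjusted p = 0.173). Without the second overexpression array the Cnp difference was -1.79, and without the first it was -0.50.

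All 3 Mobp probes lay lower in overexpression, without passing. A_51_P291224 lay at 0.01 and 0.39, against 1.41 and 0.59 in wild type (-0.80, adjusted p = 0.207). With marked spots left out its difference was -0.20, from 1 array in each group, so that its spread was estimated from other probes alone. A_55_P1958793 lay at -3.82 and -3.26, against -2.80 and -2.38 (-0.95 ± 0.30, adjusted p = 0.121). A_55_P1958798 lay at 1.70 and 1.63, against 2.22 and 2.07 (-0.48, adjusted p = 0.270). For each of them the groups did not overlap. Without the second overexpression array and with marked spots kept, the difference of A_55_P1958793 was -1.23.

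Cldn11 lay at 0.68 and 0.77 in overexpression, against 1.71 and 0.96 in wild type (-0.61, adjusted p = 0.281), and the higher wild type spot was marked. Without that spot the Cldn11 difference was -0.23 (adjusted p = 0.717). Mag lay at 2.54 and 2.30, against 2.82 and 2.69, with 3 of these 4 spots marked (-0.33, adjusted p = 0.440). Olig2 lay at -2.99 and -2.54, against -2.12 and -2.16 (-0.62, adjusted p = 0.206). These 3 genes did not overlap between the groups, whereas Olig1 did, at 0.72 and 1.06 in overexpression, against 1.01 and 1.22 in wild type (-0.22, adjusted p = 0.631). Ugt8a overlapped too, at -2.19 and -1.79, against -1.73 and -1.83.

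The Mbp probes disagreed here too. A_52_P329451 was higher in overexpression, at 0.97 and 1.90, against 0.51 and 0.93 in wild type, without overlap (0.72, adjusted p = 0.279). Leaving out the first overexpression array with marked spots kept moved this difference to 1.18. The levels of A_52_P604195 were 2.13 and 2.08, against 2.17 and 1.77. The dim A_55_P1992160 was at -4.24 and -4.12, against -4.05 and -4.13, and both of these probes overlapped between the groups.

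**Figure D2:**
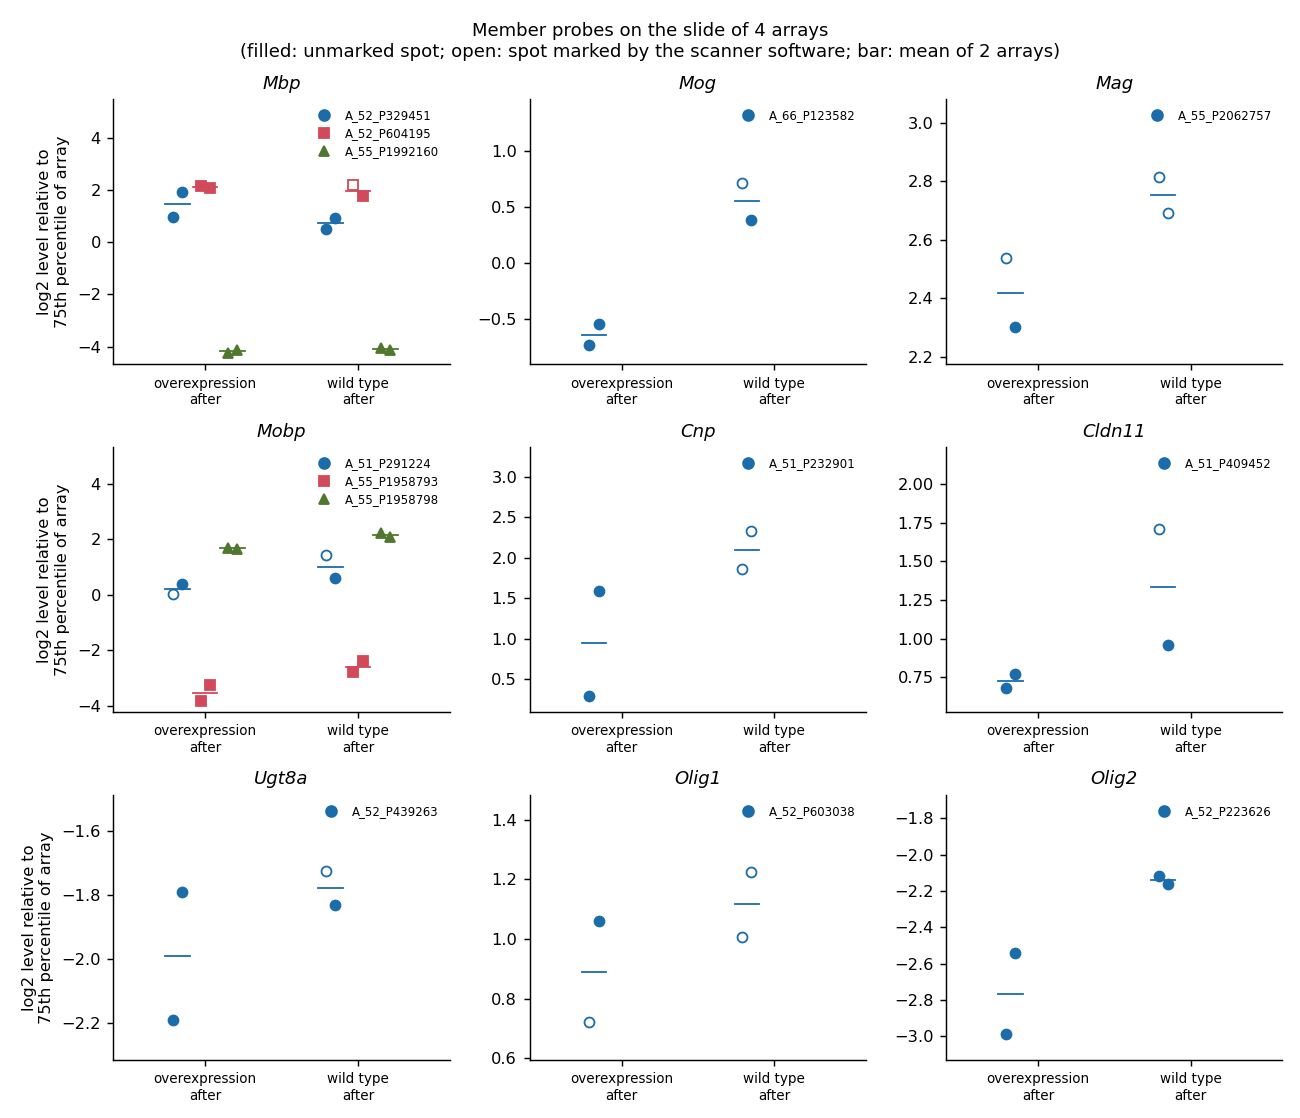
Level of each of the 13 probes on the slide of 4 arrays, as log2 signal above or below the array's 75th percentile (y axis), by group (x axis). Each point is 1 array, open where the spot was marked, and bars are means of 2 arrays. Overexpression lies below wild type without overlap for 8 probes and above it for 1 Mbp probe.

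The 3 genotypes were compared before tMCAO on the slide of 8 arrays. Between ZEB1 overexpression and wild type, 0 of 14 probes passed with marked spots kept and 0 of 9 with them left out, as did 0.0% of all probes in both fits. At an unadjusted p under 0.05 there were 3 of 14 and 1 of 9, against 9.33% and 11.3% of all probes. Both Ugt8a probes lay lower in overexpression, without overlap and without passing. A_52_P439263 lay at -0.97 and -1.0, both marked, against 0.05 and -0.23 in wild type (-0.89, 95% interval -1.75 to -0.04, adjusted p = 0.527). A_51_P506822 was not well above background in overexpression, with signals at -5.57 and -5.34, and lay at -4.63 and -4.64 in wild type. Its mean was thus at least 1.62-fold lower, set against the lowest signal well above background on each array or the probe's own where that was higher. This bound does not take in the spread between arrays. With marked spots left out, the 95% interval of the log2 difference ran from -1.43 to -0.20 (limma adjusted p = 0.352). Cldn11 lay at 1.82 and 1.69 in overexpression, against 2.39 and 2.0 in wild type (-0.44, 95% interval -0.87 to -0.01, adjusted p = 0.529). The groups did not overlap for 4 probes lower and 1 higher, against 24.2% and 22.1% of all probes.

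Between ZEB1-knock down and wild type before tMCAO, 0 of 14 probes passed in either fit, nor did any at an unadjusted p under 0.05, as against 0.0% of all probes passing and 7.11% at the unadjusted threshold with marked spots kept. No spot of the 9 genes was marked in these groups. Of the differences 13 were below 0, and all 14 lay between -0.38 and 0.04. Their median was -0.25, against -0.05 over all probes, of which 41.1% were above 0 with marked spots kept. For 6 probes knock-down lay below wild type without overlap, and for 0 above it, against 27.8% and 14.9% of all probes. The first wild type array was the higher one for all of the 14 probes but those of Mbp. Mog (A_66_P123582), whose groups overlapped, lay at 0.32 and 0.22 in knock-down, against 0.88 and 0.27 in wild type. Cnp, without overlap, lay at 1.78 and 1.84, against 2.43 and 1.93. The 95% interval of the Mog difference ran from -0.84 to 0.23 and that of Cnp from -0.84 to 0.11.

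Between ZEB1 overexpression and ZEB1-knock down before tMCAO, 0 of 14 probes passed with marked spots kept and 0 of 9 with them left out, against 0.0% of all probes. At an unadjusted p under 0.05 there was 1 of 14 and 0 of 9, against 13.4% and 15% of all probes. That 1 was the bright Mbp probe A_55_P2889696, at 3.95 and 4.37 in overexpression, both marked, against 3.72 and 3.66 in knock-down (0.47, 95% interval 0.04 to 0.90, adjusted p = 0.349). Ugt8a lay lower in overexpression for both probes, without passing. The log2 difference of A_52_P439263 was -0.83 (95% interval -1.69 to 0.03, limma adjusted p = 0.381). The means of A_51_P506822 differed by at least 1.35-fold, by the bound used above. The 95% interval of its log2 difference ran from -1.17 to 0.07 (limma adjusted p = 0.407). The groups did not overlap for 6 probes higher and 3 lower in overexpression, against 30.0% and 20.6% of all probes. These comparisons share their control arrays with one another and with the first comparison, so their values are not independent.

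**Figure D3:**
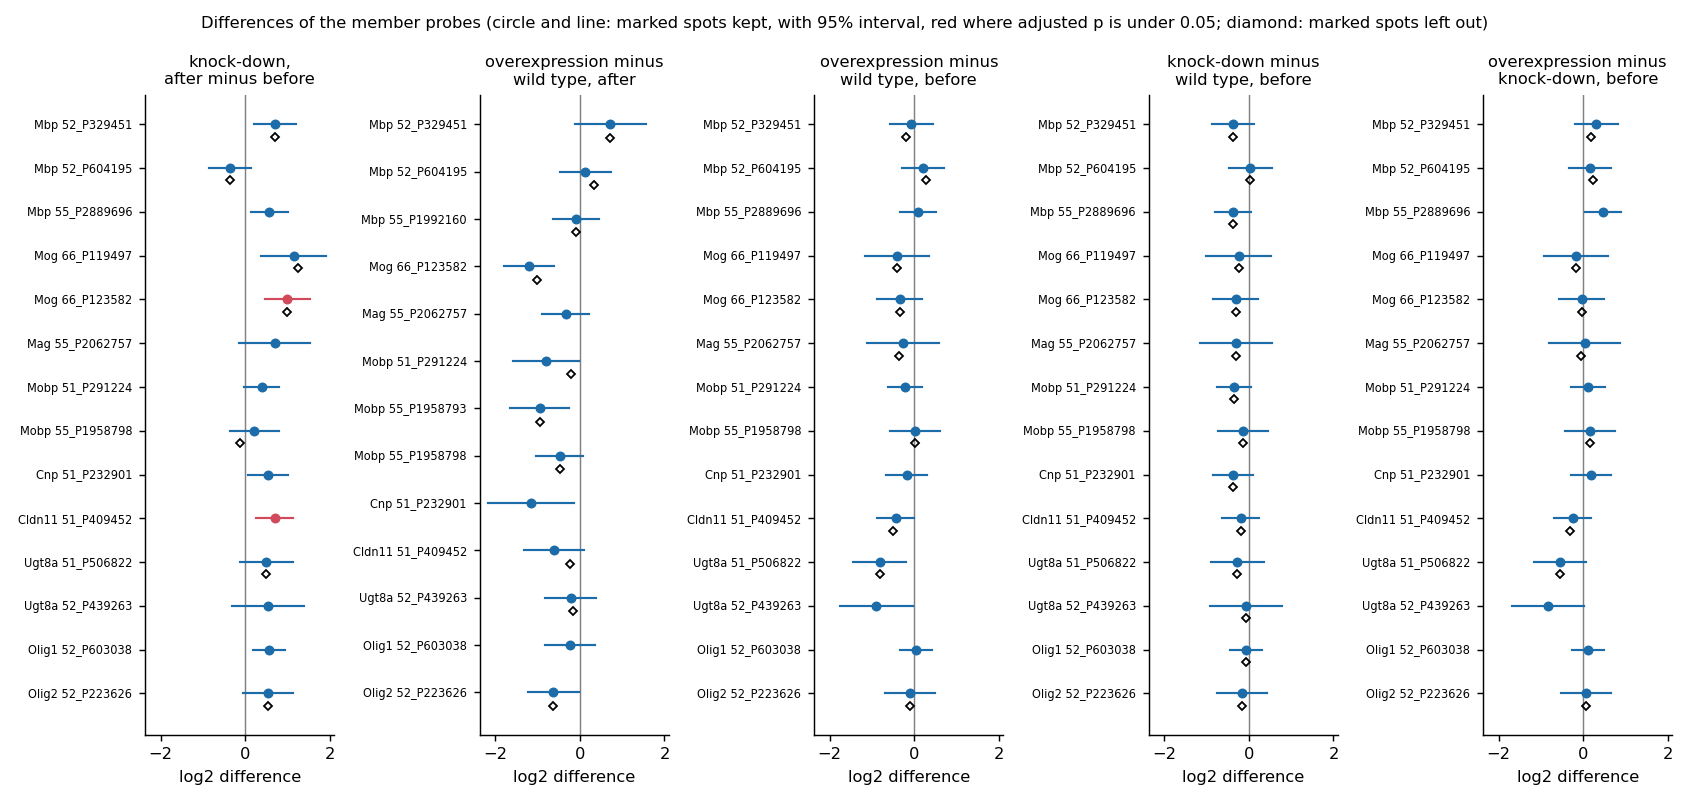
Log2 difference of each probe (x axis) in the 5 comparisons, as each panel is headed. Circles and lines are estimates with 95% intervals with marked spots kept, red where the adjusted p was under 0.05, and diamonds are estimates with marked spots left out. The 2 red circles are Mog A_66_P123582 and Cldn11 in knock-down after tMCAO over knock-down before it.

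Across the 8 arrays of this slide, each gene by its brightest probe was centred on its own mean and the 9 genes were averaged. The average was 0.53 and 0.28 in knock-down after tMCAO, -0.24 and -0.21 in overexpression before tMCAO, -0.20 and -0.21 in knock-down before tMCAO, and 0.20 and -0.13 in wild type before tMCAO. Knock-down after tMCAO was highest, and the wild type arrays were further apart than the 2 other groups before tMCAO. Mog correlated at 0.96 with the mean of the other 8 genes over these arrays and Cldn11 at 0.94, whereas Mbp did so at 0.43 and Mobp at 0.65. Pairs of genes correlated at 0.01 to 0.96, with a median of 0.67 over 36 pairs. The Mbp probe A_52_P604195 correlated at -0.37 and -0.18 with the other Mbp probes. These values describe 8 arrays in 4 groups, which share a slide and scaling, and carry no test.

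Among 15733 other genes well above background on all 8 arrays, the one most like the average of the 9 was Cx3cr1, the gene of the antigen used for sorting, at r = 0.99 over 8 arrays and 0.97 over the 6 arrays before tMCAO. Mmrn2, an endothelial matrix protein, followed at 0.98, with Gm10371, Lst1, Caprin2, Slc35d2, Fut7, Habp2, Arrdc1 and Slc38a6 down to 0.97. None of these 10 was on the wider oligodendrocyte list of 60 further genes, whose 59 candidates had a median r of 0.54, against -0.12 over all candidates. The most alike of the list was Adamts4 (0.95, rank 46), a protease of mature oligodendrocytes, then Tmem125 (0.94) and Gal3st1 (0.94), the enzyme that makes sulfatide. Microglia markers had a median r of 0.89 over 14 genes (-0.23 to 0.99) and endothelial and mural markers 0.76 over 11 (-0.46 to 0.91). The median was -0.71 over 11 neuron markers (-0.85 to 0.28) and -0.28 over 9 astrocyte markers (-0.81 to 0.83). For 6 markers of peripheral glia (Schwann cells) it was 0.19 (-0.82 to 0.80). Within the wider list it was 0.15 for progenitor genes (-0.61 to 0.85), 0.46 for lipid enzymes and 0.63 to 0.67 for the other subgroups.

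The wider list was set beside the members in each comparison, by the brightest probe of each gene. In knock-down after tMCAO against before it, 7 of 60 genes rose and 0 fell with marked spots kept, where 9.8% of all probes rose and 6.8% fell. The median log2 difference of the list was 0.20, against 0.02 over all probes. Klk6, a protease of mature oligodendrocytes, lay at 2.50 and 2.23 after tMCAO, against -1.90 and -0.73 before it (3.68 ± 0.43, adjusted p = 0.00579). It showed the largest difference of the list, but had no value with marked spots left out. Cd9, a tetraspanin that microglia also carry, rose by 1.29 ± 0.19 (adjusted p = 0.0101), and Trf, the iron carrier transferrin, by 1.15 ± 0.19 (adjusted p = 0.0131). The others were Bcas1, a mark of newly myelinating cells (0.93), the homeodomain factors Nkx2-2 (0.98) and Nkx6-2 (0.67), and the calcium channel Itpr2 (0.63). The number that rose with marked spots left out was 4 of 38, where 10.6% of all probes rose. They were Bcas1, Cd9, with 1 array after tMCAO, Nkx6-2 and Gal3st1 (0.71, adjusted p = 0.0445). Without the second array before tMCAO, 0 genes of the list rose with marked spots left out, and Klk6 alone rose with them kept. By subgroup, medians with marked spots kept were 0.34 for myelin proteins, 0.30 for other mature genes, 0.26 for premyelinating genes, -0.06 for progenitor genes and -0.07 for lipid enzymes. With marked spots left out they were 0.58 for 9 myelin proteins, 0.32 for 10 other mature genes, -0.02 for 7 premyelinating genes, -0.05 for 10 progenitor genes and 0.44 for 2 lipid enzymes, so that the signs of premyelinating genes and lipid enzymes turned.

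In overexpression against wild type after tMCAO, 2 of 59 genes fell and 0 rose with marked spots kept, where 1.54% of all probes fell and 2.08% rose. Of the 59 differences 44 were below 0 (median -0.35, against -0.09 over all probes). Cntn2, an adhesion molecule beside the node of Ranvier, was at -4.49 and -5.22, against -2.74 and -3.35 in wild type (-1.80 ± 0.34, adjusted p = 0.0416). Sgk2, a kinase, lay at -1.16 and -0.98, against 0.21 and 0.04 (-1.20 ± 0.24, adjusted p = 0.0463). Opalin, a membrane protein of oligodendrocytes, lay at -1.46 and -0.74, against 0.06 and 0.31, without passing (-1.29, adjusted p = 0.0694). With marked spots left out, Cntn2 alone fell (adjusted p = 0.0436), of 41 genes. The number that fell was 0 with normexp background correction, quantile normalization, no filter on dim probes or 1 probe a gene. Of all probes, 1.25%, 1.69%, 0% and 2.34% changed in either direction in these settings. The number of the list was 2 with probes well above background on every array and 4 with a mean-variance trend. There 3.39% and 4.85% of all probes changed. Without either wild type array, 0 genes of the list passed in either fit. In the 3 comparisons before tMCAO 0 of 60 genes passed with marked spots kept.

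Markers of other cell types also differed in these comparisons. Their counts are with marked spots kept unless stated, where 9.8% of all probes rose and 6.8% fell in knock-down after against before tMCAO. Summed over the genes of a list, levels relative to the 75th percentile for the 9 members were 52.1 to 53.6 in knock-down after tMCAO, against 34.8 to 35.8 before it. Microglia markers, all 14 well above background on every array, summed to 68.6 to 76.9 after tMCAO, against 45.9 to 47.4 before it, and 8 of 14 rose (median 0.81), as did 5 of 9 with marked spots left out. Endothelial and mural markers summed to 24.3 to 25.0, against 17.8 to 18.8, and 5 of 11 rose, as did 3 of 7 with marked spots left out. Astrocyte markers summed to 59.8 to 68.5, against 51.0 to 51.9, and 1 of 9 rose, Gfap. Neuron markers summed to 69.9 to 78.9, against 85.6 to 87.4, and 3 of 11 fell, as did 2 of 5 with marked spots left out. Of 7 measured markers of Schwann cells, the glia of peripheral nerves, 1 rose, Pmp22, and their sum was 5.15 to 5.51, against 2.69 to 3.65. On every array 9 of 9 astrocyte, 11 of 11 neuron and at least 10 of 11 endothelial and mural markers were well above background. The part of these cells in the difference of the 9 genes was not tested.

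After tMCAO, the 9 members summed to 18.8 to 20.2 in overexpression, against 25.2 to 27.3 in wild type. Endothelial and mural markers summed to 14.7 to 15.5, against 25.8 to 27.6, and 3 of 11 fell, as did 1 of 9 with marked spots left out, where 1.54% and 1.09% of all probes fell. Neuron markers summed to 45.4 to 62.4, against 68.5 to 69.7, and all 11 differences were below 0 with 0 passing. Astrocyte markers summed to 50.01 to 50.84, against 57.15 to 57.63, and microglia markers to 155 to 173, against 176 to 191, with 0 passing in either. Sums weigh the brightest genes most, and single genes of these 2 lists went both ways. Of microglia markers 7 of 14 differences were below 0 (median -0.05, against -0.09 over all probes). Of astrocyte markers 5 of 9 were below 0 (median -0.03). With marked spots left out, 4 of 6 astrocyte differences were above 0 (median 0.26). Of microglia differences 5 of 7 were then below 0 (median -0.03). The part of these cells was not tested here either.

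**Figure D4:**
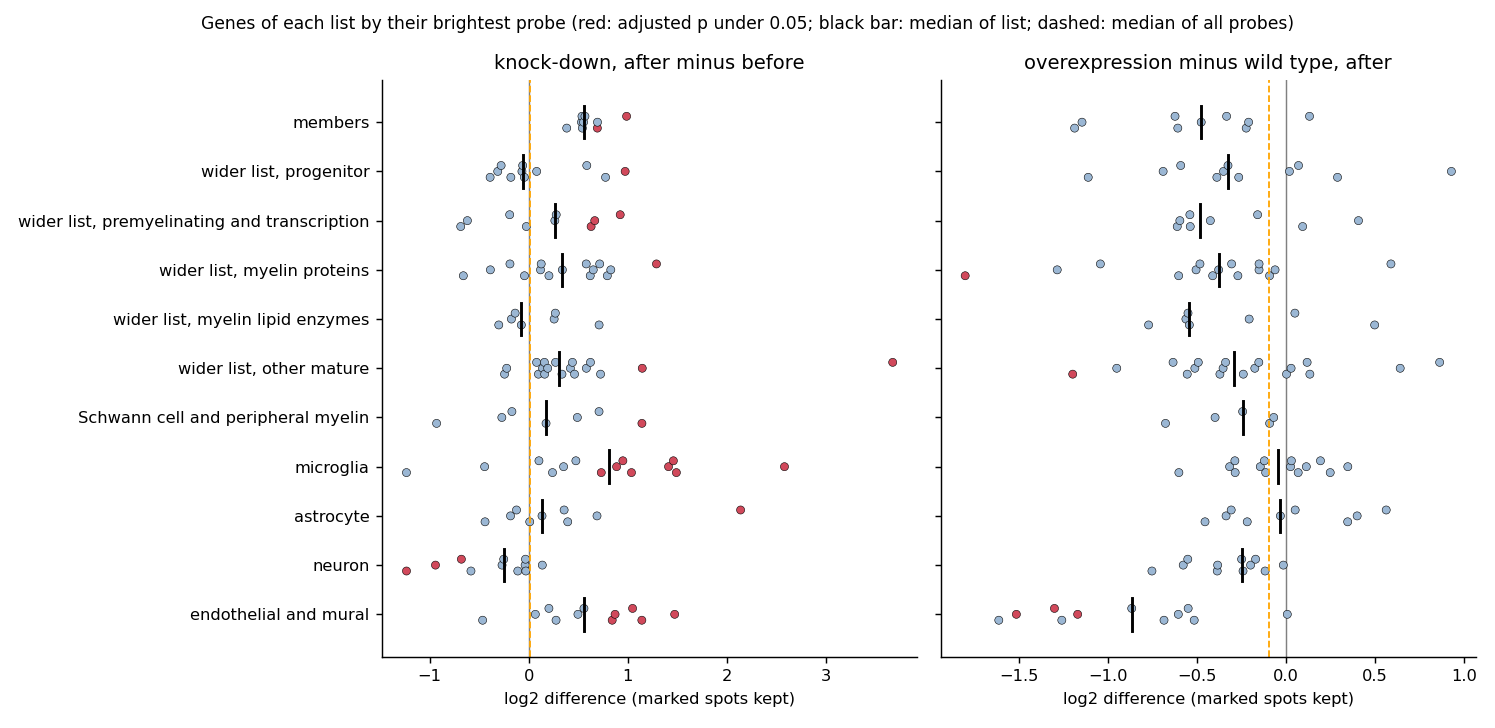
Log2 difference (x axis) of each gene by its brightest probe, with marked spots kept, for the 9 members, the subgroups of the wider oligodendrocyte list and markers of other cell types (rows), in 2 comparisons (panels). Each point is 1 gene, red where the adjusted p was under 0.05, black bars are medians of the list and the dashed line is the median of all probes. The median of the members is 0.55 in knock-down after tMCAO over before it and -0.48 in overexpression over wild type after tMCAO.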

How the data were processed

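Scanner files of 12 one-colour Agilent arrays were analysed. Feature Extraction 11.5.1.1 made them per the file headers, although version 9.1 is the one named in the submitters' processing notes. Their signals are fluorescence intensity, deposited after background subtraction per the file headers, beside the deposited yes or no marks on spots, classed as other values. The authors' value tables, deposited as log2 values that equal the log2 signal minus a constant per column, served as an alternative. In them the 2 columns of knock-down after tMCAO fitted each other's scanner files (correlation with the file of the same label 0.975).

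Log2 intensity was set relative to the 75th percentile of its array. Probes were named through RefSeq accessions (48.1% and 59.7% of the probes of the 2 designs). A probe entered a fit if all arrays of 1 or more groups measured it well above background, which left 39334 and 39085 probes. Groups of a slide were fitted together with limma 3.58.1 in R 4.3.3 (lmFit, eBayes, two-sided), adjusted by Benjamini-Hochberg over all probes, with marked spots left out and, as an alternative, kept. The script was tested on simulated data. Precision is limited by having 2 arrays a group.

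The 9 members, the wider list and the marker lists were chosen with earlier results of these data known. Of the wider list, genes that passed were named, at most 10 by adjusted p, and otherwise the 3 with the largest absolute difference. The 10 genes most like the members were taken by Pearson correlation. Gfap, Pmp22, Tmem125 and Gal3st1 were named as the most alike of a list or as single members of a count, after their values were seen. Replicate numbers come from the labels and mark no stated pairing.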

Additional observations from a re-analysis of the deposited data

How the results depend on the processing

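For knock-down after against before tMCAO, 1 member probe passed with marked spots left out. The number was 2 with marked spots kept, with quantile normalization or with probes well above background on every array, 3 with a mean-variance trend or the authors' value tables, 5 with normexp background correction and 0 with no filter on dim probes. It stayed at 1 with a replicate block, with 1 probe a gene or with only the 2 groups fitted. The share of all probes passing moved too, from 18.1% with marked spots left out to 28.6% with normexp and 5.85% with no filter. It was 24.2% with the trend, 24.4% with probes well above background on every array and 18.6% with quantile normalization. It was 16.6% with marked spots kept, 17.8% with the replicate block and 16.8% with the authors' value tables. With 1 probe a gene it was 18.1%, and with only the 2 groups fitted 9.82%. The 3 comparisons before tMCAO gave 0 member probes under all of these settings. Fits with an array left out leave 1 array in its group, and differences whose sign turned are given below. Among single probes, 461 of 482 values under alternatives and 392 of 456 values with an array left out kept their sign and their side of the threshold. In knock-down after against before tMCAO, Mobp A_55_P1958798 turned to 0.21 with marked spots kept, 0.078 with normexp and 0.19 with the value tables. Overexpression against knock-down before tMCAO turned for Mag to 0.031 with marked spots kept, 0.026 with normexp, 0.052 with the value tables and 0.054 with the replicate block, and for Mog A_66_P123582 to 0.14 with normexp. Olig2 turned to 0.092 with normexp in overexpression against wild type before tMCAO, Ugt8a A_51_P506822 to 0.0017 with quantile normalization in knock-down against wild type before tMCAO, and Ugt8a A_52_P439263 to 0.041 with the replicate block in overexpression against wild type after tMCAO. The cause of these turns was not tested.

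With an array left out, further signs turned, over these ranges of log2 differences. In knock-down after against before tMCAO, Mobp A_55_P1958798 ran from -0.14 to 0.55 and Ugt8a A_52_P439263, with marked spots kept, from -0.036 to 1.11. In overexpression against wild type after tMCAO, Mbp A_52_P604195 ran from -0.069 to 0.36 and Ugt8a A_52_P439263 from -0.41 to 0.041. For overexpression against wild type before tMCAO the ranges were -0.69 to 0.067 for Mag, -0.25 to 0.068 for Mbp A_52_P329451, -0.091 to 0.13 for Mobp A_55_P1958798, -0.84 to 0.017 for Mog A_66_P119497 and -0.37 to 0.18 for Olig2. With marked spots kept they were -0.43 to 0.069 for Cnp, -0.11 to 0.30 for Mbp A_55_P2889696 and -0.086 to 0.17 for Olig1. For knock-down against wild type before tMCAO they were -0.38 to 0.0019 for Cldn11, -0.63 to 0.037 for Mag, -0.057 to 0.14 for Mbp A_52_P604195, -0.67 to 0.19 for Mog A_66_P119497, -0.19 to 0.059 for Olig1 and -0.20 to 0.081 for Ugt8a A_52_P439263. For overexpression against knock-down before tMCAO they were -0.17 to 0.13 for Mag, -0.40 to 0.052 for Mog A_66_P119497, -0.088 to 0.015 for Mog A_66_P123582, -0.21 to 0.34 for Olig2 and, with marked spots kept, -0.00053 to 0.23 for Mobp A_51_P291224.

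Replicate numbers are shared labels with no stated pairing. Normexp on mean signals, as planned, was not run: median signals were used instead, chosen after seeing the data. Without the second knock-down array after tMCAO, the difference of Ugt8a A_51_P506822 was 0.87 with marked spots left out. That of A_52_P439263 was 1.11 with marked spots kept. Of the wider list, 0 to 9 genes rose in knock-down after tMCAO. Without the second array before it the number was 0 with marked spots left out and 1 with them kept, and 0 changed in overexpression against wild type after tMCAO without either wild type array. Over all probes, 5707 passed in knock-down after against before tMCAO, from 2873 with no filter to 9051 with normexp, and 940 in overexpression against wild type after tMCAO, from 0 with no filter to 1553 with the trend. With marked spots left out and single arrays omitted, the first count ran from 1173 without the second array before tMCAO to 4882 without the second array after it. The second count was 1 without the first wild type array, 0 without the second, 2090 without the first overexpression array and 1773 without the second. Probes well above background on no array of a group have only a bound there, and 2 arrays a group leave wide intervals.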
